A study of Drosophila melanogaster with 6 samples.

Results

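Larvae homozygous for HP1b16 were compared with larvae homozygous for HP1b86, 2 deletion alleles of the same Drosophila gene. The comparison uses the 2 HP1b16 libraries and the 2 HP1b86 libraries of a series of 6. The other 2 libraries come from yw, the strain into which both alleles had been crossed back, and they are given for orientation. Both alleles arose by imprecise excision of a P element from the 5′ UTR of HP1b, and both lack the start codon and much of the coding sequence. The deletion in HP1b16 is the shorter of the pair, and the study's methods describe an aberrant RNA from its locus. Each stock stands for a single excision event, so allele and stock cannot be told apart. RNA was extracted from whole larvae of the third instar, and no source describes the libraries of a genotype as separate collections of larvae. A gene entered the comparison if it averaged at least 1 FPKM (fragments per kilobase of transcript scaled to the mapped fragments of the library) over the 4 mutant libraries and was not listed at 0 in any of them while at 500 FPKM or more in another. This left 10905 of the 16662 rows of the deposited table. A row is usually a gene, but 560 of the rows tested hold several overlapping genes under 1 value. The study's methods give the reads collected per sample only as a range, so the reads behind a single value cannot be worked out from the FPKM.

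HP1 proteins are small chromosomal proteins that bind methylated lysine 9 of histone H3 through a chromodomain and recruit partners through a chromoshadow domain. HP1a is the classical protein of Drosophila heterochromatin, while HP1B is found in euchromatin as well. Late larvae change fast: pulses of the steroid ecdysone end feeding, empty the salivary glands of glue and start metamorphosis.

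The 4 libraries of the comparison did not lie equally close. The HP1b16 replicates differed by more than 2-fold in 1.76% of the rows tested, and the HP1b86 replicates in 23.5%. HP1b86 replicate 1 was nearer to each HP1b16 library (7.36% and 4.22% of rows beyond 2-fold) than to its own replicate, while for HP1b86 replicate 2 the share was 19.1% and 20.5%. By the median absolute log2 difference the order was another: HP1b86 replicate 2 lay at 0.310 and 0.324 from the HP1b16 libraries, HP1b86 replicate 1 at 0.330 and 0.235, and the HP1b86 replicates at 0.359 from each other. Genes of the testis set that library apart: 33 of 33 spermatocyte and spermatid rows had their higher HP1b86 value in replicate 2. Their FPKM summed to 904 and 862 in the HP1b16 libraries, 539 and 2696 in the HP1b86 libraries and 1541 and 1091 in the yw libraries. The column headings of the HP1b86 libraries also follow another naming scheme than those of HP1b16 and yw. Whether they were collected or sequenced apart is not given in the sources used here, so this cannot be told apart from genotype. All 6 glue gene markers of the wandering larva were above 1 FPKM in every library, and markers of the adult accessory gland and ovary summed to less than 1 FPKM in each. Those of the adult eye summed to at most 1.73 FPKM, in HP1b86 replicate 2. Of the 5 adult female markers the yolk protein gene Yp3 alone reached 1 FPKM, and the sum was 65.8 and 184 FPKM in HP1b16, 116 and 3.57 FPKM in HP1b86, and 10.2 and 15.7 FPKM in yw.

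**Figure D1:**
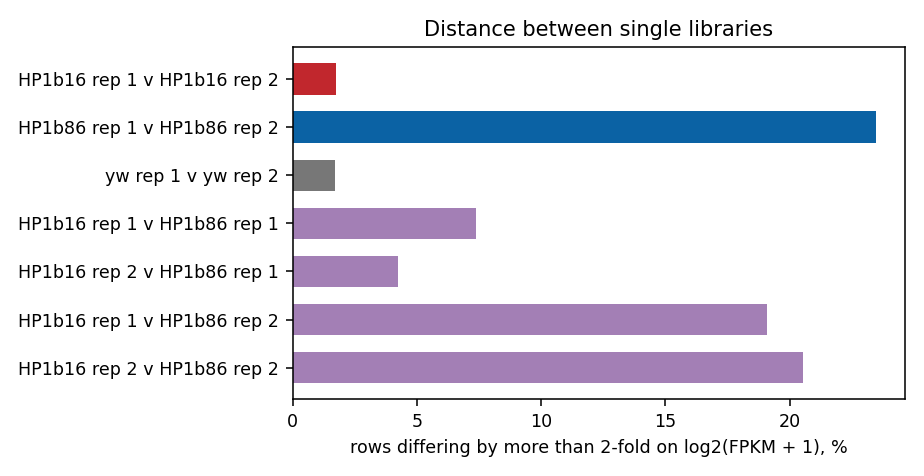
Share of the 10905 rows tested (horizontal axis, percent) that differed by more than 2-fold on the log2(FPKM + 1) scale between 2 single libraries. Red, blue and grey bars are replicates of HP1b16 (1.76%), HP1b86 (23.5%) and yw (1.71%), and purple bars are HP1b16 libraries against HP1b86 libraries, which range from 4.22% to 20.5%.

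Against this spread no single gene passed the threshold. Of the 10905 rows, 0 (0.0%) had an adjusted p under 0.05 in limma, and the smallest adjusted p was 0.341. Unadjusted, 506 rows (4.64%) had a p under 0.05, 234 of them higher in HP1b16 (2.15%) and 272 lower (2.49%). The count was not stable to the choice of libraries: without HP1b86 replicate 1, 2314 rows passed the adjusted threshold (285 higher and 2029 lower in HP1b16), and without HP1b86 replicate 2, 29 rows did (9 higher and 20 lower). In these fits the spread comes from the HP1b16 pair, and the lone HP1b86 library is assumed to vary like it. The p-values measure the spread between libraries, which may be technical. The genes described next were therefore picked by how far apart the libraries lay. A row is called separated if both libraries of one mutant were above both of the other by at least 1 on the log2(FPKM + 1) scale, so that the nearest libraries still differed by at least 2-fold. This held for 28 rows higher in HP1b16 (0.257%) and 44 rows lower in HP1b16 (0.403%), and 69 of the 72 had an unadjusted p under 0.05. Their adjusted p in limma ranged between 0.341 and 0.951. With no gap required, 1725 rows (15.8%) were higher in both HP1b16 libraries than in either HP1b86 library, and 2037 rows (18.7%) were lower in both. An exact permutation test of 2 libraries against 2 cannot go below p = 0.333, so none is given for single genes. Over all rows the median log2 difference (HP1b16 minus HP1b86) was -0.08, with 39.1% of rows higher in HP1b16. When the FPKM of each library were rescaled to a common sum (TPM), these figures became 0.24 and 74.1%, so small differences are read against the median of all rows.

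HP1b itself was measured at 2.55 and 3.13 FPKM in HP1b16 larvae, 0.121 and 0.0403 FPKM in HP1b86 larvae, and 22.8 and 24.2 FPKM in yw larvae. Both mutants were thus far below yw, as their labels say, and HP1b16 retained more signal than HP1b86 without overlap. The HP1b16 mean was 12.1% of the yw mean and the HP1b86 mean 0.344%. The difference between the mutants was 1.83 on the log2(FPKM + 1) scale (standard error 0.25, adjusted p = 0.951 from limma). With a pseudocount of 0.1 in place of 1 it was 4.05 (standard error 0.68), since the HP1b86 values are near 0. With HP1b86 replicate 1 left out it was 1.88 and passed the threshold (adjusted p = 0.0045 from limma), with the spread then taken from the HP1b16 libraries alone. It did not pass without HP1b86 replicate 2 (1.77, adjusted p = 0.0815 from limma) or without either HP1b16 library (adjusted p = 1.0 from limma). With 1 value per gene, the exons that gave the HP1b16 signal cannot be named. The genes on either side of HP1b were close in both mutants. APC4, which encodes a subunit of the anaphase-promoting complex, was at 4.68 and 4.92 FPKM in HP1b16 and at 4.90 and 4.35 FPKM in HP1b86, a log2 difference of 0.05 (standard error 0.16). CG7246 was at 4.71 and 5.23 FPKM in HP1b16 and at 4.89 and 4.47 FPKM in HP1b86, a log2 difference of 0.07 (standard error 0.16). In either neighbour the libraries of the mutants overlapped.

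**Figure D2:**
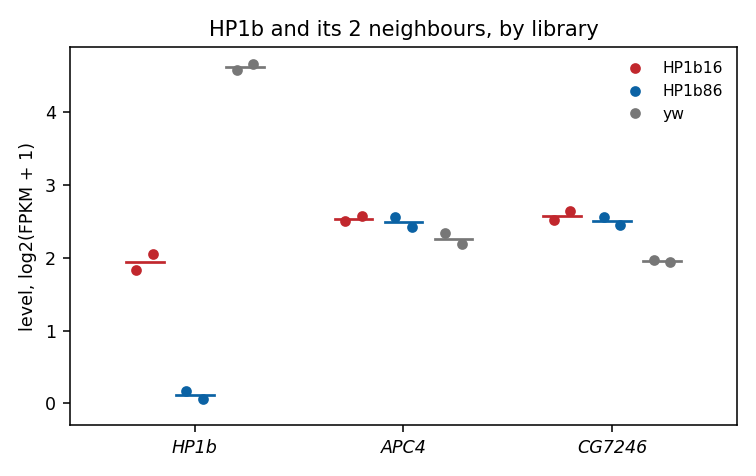
Levels of HP1b and its neighbours APC4 and CG7246 in each library on the log2(FPKM + 1) scale (points, with the mean of 2 libraries as a line), for HP1b16, HP1b86 and yw from left to right. Only HP1b, at 2.55 and 3.13 FPKM in HP1b16 against 0.121 and 0.0403 FPKM in HP1b86, separates the mutants.

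Among 16 rows of the HP1 family, its partners and other heterochromatin genes, only HP1b was separated (all rows 0.257% higher and 0.403% lower). The median log2 difference was 0.09. Without overlap 6 rows, HP1b among them, were higher in HP1b16 (all rows 15.8%) and 4 lower (all rows 18.7%). The rows of egg and Su(var)3-9 each hold a further gene, Lcp9 and eIF-2gamma, so neither can be read alone. HP1c, which encodes a euchromatic member of the family, stood at 19.6 and 19.1 FPKM in HP1b16 and at 20.0 and 23.4 FPKM in HP1b86, a log2 difference of -0.15 (standard error 0.15). Both HP1b16 libraries were the lower ones, by a difference close to its standard error.

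Among the 28 separated rows higher in HP1b16, 19 are protein-coding genes. CG3292, now named Alp7 and annotated as an alkaline phosphatase, had the widest gap of these genes. It was at 108 and 71.2 FPKM in HP1b16 against 1.64 and 2.26 FPKM in HP1b86 and 0.316 and 0.356 FPKM in yw. The log2 difference was 4.92 (standard error 0.28), with an adjusted p of 0.503 in limma. The HP1b16 libraries stood apart from all 4 others. Cpr67Fa1, a cuticle protein gene, was at 256 and 523 FPKM in HP1b16, 64.0 and 34.7 FPKM in HP1b86, and 0.218 and 0.387 FPKM in yw, a log2 difference of 2.93 (standard error 0.52). Its 3 genotypes did not overlap, with HP1b86 between HP1b16 and yw. The zinc transporter gene Zip89B had the same order, with 131 and 215 FPKM in HP1b16, 53.7 and 21.9 FPKM in HP1b86, and 8.15 and 9.30 FPKM in yw (log2 difference 2.26, standard error 0.56). Oatp58Db, an organic anion transporter gene, was at 3.22 and 3.4 FPKM in HP1b16, 0.335 and 0.639 FPKM in HP1b86, and 0.255 and 0.390 FPKM in yw. There the HP1b86 libraries overlapped with yw and the HP1b16 libraries lay above both.

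In other genes HP1b86 was the low genotype. For 16 of the 28 rows both yw libraries were nearer to the HP1b16 mean than to the HP1b86 mean, and for 10 of the 28 both were nearer to HP1b86. CG43221 stood at 19.5 and 20.9 FPKM in HP1b16 and at 4.52 and 16.2 FPKM in yw, and was listed at 0 in both HP1b86 libraries. Its adjusted p of 0.341 from limma was the smallest of the comparison. CG7587, now named Sgs5bis after the glue gene Sgs5, was at 619 and 429 FPKM in HP1b16, 149 and 65.2 FPKM in HP1b86, and 706 and 742 FPKM in yw (log2 difference 2.37, standard error 0.51). The HP1b86 larvae were the low ones in both genes. The homeobox gene pros, which acts in neural cells that leave division, was at 10.8 and 8.44 FPKM in HP1b16 and at 2.65 and 3.65 FPKM in HP1b86 (log2 difference 1.36, standard error 0.23). In pros, HP1b86 was the lowest genotype and HP1b16 lay just below yw. CR40640, which could not be placed in the reference annotation, was at 174 and 250 FPKM in HP1b16, 4.39 and 1.87 FPKM in HP1b86, and 348 and 116 FPKM in yw (log2 difference 5.74, standard error 0.41). The long non-coding RNA CR43166 was at 131 and 87.3 FPKM in HP1b16, 2.90 and 9.38 FPKM in HP1b86, and 149 and 115 FPKM in yw (log2 difference 4.08, standard error 0.59). For both, HP1b86 was low and HP1b16 overlapped with yw.

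**Figure D3:**
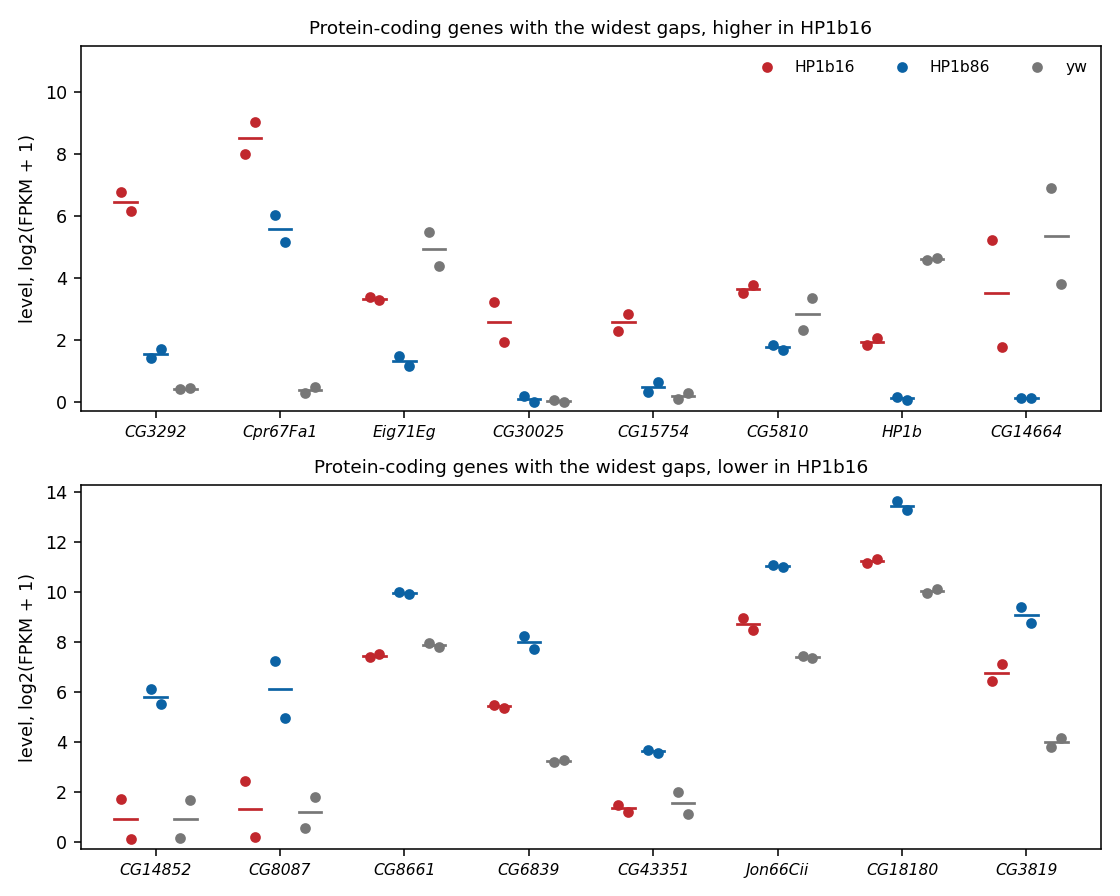
Levels of the protein-coding genes with the widest gaps between the nearest HP1b16 and HP1b86 libraries, on the log2(FPKM + 1) scale, for genes higher in HP1b16 (top) and lower in HP1b16 (bottom), leaving out CG43221, which was listed at 0 in both HP1b86 libraries. Points are libraries and lines the means of 2 libraries, with HP1b16, HP1b86 and yw from left to right. CG3292 stood apart in HP1b16 (108 and 71.2 FPKM), and CG14852 in HP1b86 (68 and 44.4 FPKM).

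Of the 44 separated rows lower in HP1b16, 32 are protein-coding genes, and 35 had both yw libraries nearer to HP1b16. CG14852 was at 2.33 and 0.0921 FPKM in HP1b16, 68 and 44.4 FPKM in HP1b86, and 0.121 and 2.25 FPKM in yw (log2 difference -4.88, standard error 0.66). CG8087, its direct neighbour on 3R, was at 4.48 and 0.162 FPKM in HP1b16, 149 and 30.6 FPKM in HP1b86, and 0.475 and 2.49 FPKM in yw (log2 difference -4.77, standard error 1.20). Only the HP1b86 libraries had either gene above 5 FPKM. CG8661 was at 167 and 184 FPKM in HP1b16 and at 1016 and 977 FPKM in HP1b86, with 247 and 225 FPKM in yw (log2 difference -2.50, standard error 0.18). CG8664, which has 1 annotated gene between it and CG8661 on the X chromosome, was at 1037 and 949 FPKM in HP1b16, 3506 and 2832 FPKM in HP1b86, and 1195 and 1254 FPKM in yw (log2 difference -1.67, standard error 0.27). In this pair HP1b16 was slightly below yw and HP1b86 far above it. CG6839 and CG3819, annotated as nucleases and also separated by 1 gene, on 3L, were graded instead. CG6839 was at 43.9 and 40.3 FPKM in HP1b16, 305 and 213 FPKM in HP1b86, and 8.15 and 8.60 FPKM in yw (log2 difference -2.57, standard error 0.24). CG3819 was at 86.3 and 137 FPKM in HP1b16, 680 and 429 FPKM in HP1b86, and 13.1 and 16.9 FPKM in yw (log2 difference -2.30, standard error 0.38). For both nuclease genes HP1b16 lay between yw and HP1b86 without overlap.

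The digestive serine proteases were the gene list with the lowest median. These enzymes, the trypsins and the Jonah proteases, are made by midgut cells and cut dietary protein in the gut lumen. Of 26 rows tested, 25 had a lower mean in HP1b16 than in HP1b86, 19 of them without overlap (all rows 18.7%). At an unadjusted p under 0.05, 7 were lower (all rows 2.49%). At a mean of at least 5 FPKM, 24 of 25 rows were lower, 18 without overlap (all rows 1673 of 7888). The row this left out, deltaTry, is in each count over the 26 and passed the minimum only through its HP1b86 values. Over the 26 rows the median log2 difference was -1.12, against -0.08 over all rows. It stayed negative under TPM scaling (-0.76), quantile normalization (-0.71) and with any single library left out (-0.72 to -1.39). Jon66Cii was at 496 and 354 FPKM in HP1b16, 2170 and 2083 FPKM in HP1b86, and 172 and 164 FPKM in yw (log2 difference -2.34, standard error 0.27). Jon25Bii was at 1013 and 1100 FPKM in HP1b16, 6218 and 3004 FPKM in HP1b86, and 637 and 606 FPKM in yw (log2 difference -2.03, standard error 0.47). Jon44E was at 91.3 and 149 FPKM in HP1b16, 327 and 449 FPKM in HP1b86, and 37.3 and 54.1 FPKM in yw (log2 difference -1.71, standard error 0.35). The gap of Jon44E shrank below 2-fold under TPM scaling and quantile normalization. In each of the 3, the yw libraries were lowest, the HP1b16 libraries next and the HP1b86 libraries highest. That order without overlap was found in 18 of the 26 rows (69.2%) and in 484 of all 10905 rows (4.44%). Over the list the FPKM summed to 36688 and 41306 in the HP1b16 libraries, 122999 and 67703 in the HP1b86 libraries and 15437 and 18035 in the yw libraries.

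The smallest differences of the list were those of 2 trypsins. The log2 difference of kappaTry was -0.23 (standard error 0.69) and that of lambdaTry 0.13 (standard error 0.54), the single positive value of the list. In lambdaTry the values were 26.2 and 59.4 FPKM in HP1b16, 47.9 and 27.1 FPKM in HP1b86, and 0.220 and 0.167 FPKM in yw, so the mutants overlapped and both were above yw. HP1b86 replicate 1 was above replicate 2 in 23 of the 26 rows. A further 2 Jonah genes, Jon99Cii and Jon99Ciii, were left out because they were listed at 0 in at least 1 mutant library and far above the limit of 500 FPKM in another. The other rows left out in this way were the larval serum protein genes Lsp1alpha, Lsp1beta, Lsp1gamma and Lsp2, the fat body gene Fbp1 and 3 rows of mitochondrial genes. Lsp2, a storage protein gene, was listed at 0 in both HP1b16 libraries, at 16386 and 8705 FPKM in HP1b86 and at 7602 and 8239 FPKM in yw. An exact 0 in so abundant a gene can be a failed estimate, so these rows were given no difference. Many of these genes have close relatives whose reads may be shared. An extreme case is deltaTry, at 0.0656 and 0.122 FPKM in HP1b16 and at 4.18 and 1.79 FPKM in HP1b86. Its adjacent relative CG30025 was at 8.34 and 2.77 FPKM in HP1b16 and at 0.125 and 0 FPKM in HP1b86. The 2 genes went in opposite directions, and how reads were divided between such copies is not given in the sources used here.

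Other genes tied to digestion followed in part. CG18180, annotated as a serine protease but outside the list, was at 2310 and 2556 FPKM in HP1b16, 12687 and 9937 FPKM in HP1b86, and 1005 and 1130 FPKM in yw (log2 difference -2.21, standard error 0.36), with the same graded order. Amyrel, a relative of the amylases, was at 10.4 and 7.18 FPKM in HP1b16 and at 34.0 and 34.2 FPKM in HP1b86 (log2 difference -1.86, standard error 0.22). It was the only separated row among 12 maltases and amylases, whose median log2 difference was 0.13. Among the lysozymes, which in larvae act in the gut, the median over 7 rows was -0.18. LysC, annotated as a pseudogene in the current assembly and close in sequence to its expressed relatives, was at 283 and 233 FPKM in HP1b16, 1517 and 832 FPKM in HP1b86, and 24.3 and 18 FPKM in yw (log2 difference -2.12, standard error 0.38). LysB was at 4113 and 3622 FPKM in HP1b16 and at 3515 and 2425 FPKM in HP1b86, a log2 difference of 0.40 (standard error 0.36), so the members of this cluster did not share a direction.

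Neuronal genes were the list with the highest median among those of 10 rows or more. All 16 rows had a higher mean in HP1b16, 15 of them without overlap (all rows 15.8%) and 4 at an unadjusted p under 0.05 (all rows 2.15%). Several are low: Rdl and the row of futsch were under 1 FPKM in both HP1b86 libraries, and 8 rows remained at a mean of at least 5 FPKM, 7 of them without overlap, with a median of 0.57. The deposited table held 17 rows of the list, and 16 of them passed the minimum, Rdl and futsch only through their HP1b16 values. The median log2 difference was 0.55, and it remained between 0.45 and 0.82 under the 3 other scalings and with any single library left out. elav, which encodes an RNA-binding protein of neurons, was at 12 and 8.73 FPKM in HP1b16, 3.89 and 4.40 FPKM in HP1b86, and 9.53 and 16.4 FPKM in yw (log2 difference 1.13, standard error 0.21). Appl, the fly relative of the amyloid precursor protein gene, was at 8.96 and 7.47 FPKM in HP1b16, 4.29 and 4.41 FPKM in HP1b86, and 9.32 and 12.4 FPKM in yw (log2 difference 0.78, standard error 0.16). In both, the HP1b86 libraries were the low ones. The median log2 difference from yw over the list was -0.07 in HP1b16 and -0.49 in HP1b86. Between the HP1b86 replicates the median log2 difference of this list was 0.00. The genes at the small end were Syt1, which encodes synaptotagmin, at 27.7 and 22.9 FPKM in HP1b16 and at 26.2 and 23.1 FPKM in HP1b86, and the row that joins 4EHP with Syx1A. In RNA from whole larvae, fewer cells of a type and less RNA per cell cannot be told apart.

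Muscle genes also had mostly higher means in HP1b16. Of 23 rows, 21 had a higher mean in HP1b16, 11 without overlap (all rows 15.8%) and 5 at an unadjusted p under 0.05 (all rows 2.15%), with a median log2 difference of 0.48. Among them were the genes of very large sarcomere proteins. bt, which encodes projectin, was at 31.5 and 32.2 FPKM in HP1b16, 13.3 and 8.73 FPKM in HP1b86, and 5.07 and 10.9 FPKM in yw (log2 difference 1.48, standard error 0.24). Unc-89, which encodes obscurin, was at 10.7 and 13.9 FPKM in HP1b16, 5.29 and 3.45 FPKM in HP1b86, and 0.801 and 1.47 FPKM in yw (log2 difference 1.32, standard error 0.26). sls, which encodes the titin relative Sallimus, was at 12.3 and 12.6 FPKM in HP1b16, 5.49 and 5.80 FPKM in HP1b86, and 5.12 and 6.85 FPKM in yw (log2 difference 1.02, standard error 0.13). In these 3 genes the HP1b16 libraries were the highest of the 6. In 8 of the 23 rows both yw libraries were lowest, both HP1b86 libraries next and both HP1b16 libraries highest, an order found in 206 of all rows. Mhc, the gene of muscle myosin heavy chain, was at 350 and 454 FPKM in HP1b16, 236 and 138 FPKM in HP1b86, and 27.7 and 46.4 FPKM in yw (log2 difference 1.14, standard error 0.36). Both mutants were above yw in Mhc, HP1b16 the further. TpnC73F, a troponin C gene, was at 630 and 611 FPKM in HP1b16 and at 567 and 610 FPKM in HP1b86, a log2 difference of 0.08 (standard error 0.19). HP1b86 replicate 1 was above replicate 2 in 17 of the 23 rows. Without replicate 2 the list median was 0.25 and 16 of 23 rows were higher in HP1b16, and without replicate 1 it was 0.75 with 21 of 23.

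**Figure D4:**
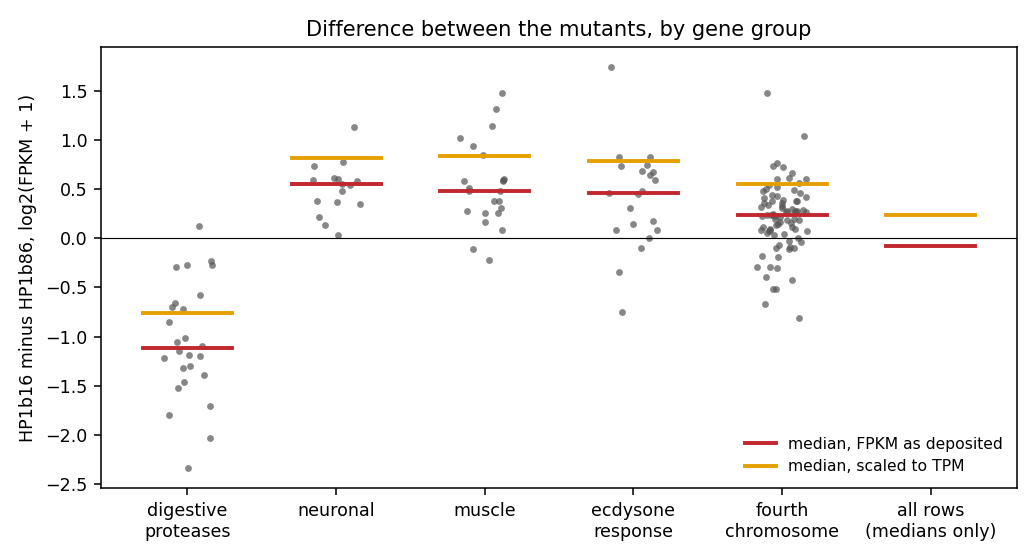
Log2 difference (HP1b16 minus HP1b86, log2(FPKM + 1) scale) of each member of 4 gene lists and of the rows on the fourth chromosome (points, spread sideways for clarity). Red lines are medians from the FPKM as deposited and orange lines medians after scaling to TPM, also for all rows tested. The protease median was -1.12 and -0.76 and the neuronal median 0.55 and 0.82.

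Genes of the ecdysone response had mostly higher means in HP1b16. Of 21 rows, 18 had a higher mean in HP1b16 than in HP1b86, 12 without overlap (all rows 15.8%), and the median log2 difference was 0.46. In each direction 1 row had an unadjusted p under 0.05, close to the share over all rows (2.15% higher and 2.49% lower). At a mean of at least 5 FPKM 17 rows remained, with a median of 0.31. Of these 17, 14 had a higher mean in HP1b16, 8 without overlap (all rows 1120 of 7888). In 8 of the 21 rows (38.1%) both HP1b86 libraries were lowest, both HP1b16 libraries next and both yw libraries highest, an order found in 658 of all rows (6.03%). Hr4, which encodes a nuclear receptor of the ecdysone cascade, was at 7.34 and 3.42 FPKM in HP1b16, 1.09 and 0.579 FPKM in HP1b86, and 23.5 and 9.5 FPKM in yw (log2 difference 1.74, standard error 0.42). The HP1b86 mean of Hr4 was 0.833 FPKM, so it passed the minimum only through its HP1b16 values. br, the Broad-Complex gene, was at 102 and 74.6 FPKM in HP1b16, 41.6 and 63.7 FPKM in HP1b86, and 188 and 233 FPKM in yw (log2 difference 0.75, standard error 0.31). Eip75B, an early nuclear receptor gene, was at 38.6 and 28.1 FPKM in HP1b16, 20.1 and 23.1 FPKM in HP1b86, and 69.6 and 73.7 FPKM in yw (log2 difference 0.59, standard error 0.22). The 3 genes shared the order, with no overlap between genotypes, and the gap of Hr4 shrank below 2-fold under quantile normalization. Eig71Eg, a late ecdysone-induced gene, was at 9.51 and 8.68 FPKM in HP1b16, 1.79 and 1.20 FPKM in HP1b86, and 43.8 and 19.7 FPKM in yw (log2 difference 2.03, standard error 0.21), again with HP1b16 in the middle. ImpL2, an ecdysone-inducible gene that encodes an antagonist of insulin-like peptides, went the other way, at 47.2 and 54.3 FPKM in HP1b16, 80.9 and 90.7 FPKM in HP1b86, and 55.0 and 62.3 FPKM in yw (log2 difference -0.75, standard error 0.16). In ImpL2 the HP1b86 libraries were the highest. Without HP1b16 replicate 1, the median of the list was 0.25 and 14 of 21 rows were higher in HP1b16.

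The glue genes, which respond to ecdysone in the salivary gland, differed by more than 2-fold between the HP1b86 replicates in 8 of 9 rows. Of the 9 rows, 5 had a higher mean in HP1b16, 0 were without overlap, and the median log2 difference was 0.11. Sgs3, a major glue protein gene, was at 3983 and 2884 FPKM in HP1b16, 1993 and 4693 FPKM in HP1b86, and 4833 and 5119 FPKM in yw, a log2 difference of 0.15 (standard error 0.57). The HP1b16 libraries lay within the range of the HP1b86 libraries. Summed over the 6 glue gene markers, the FPKM came to 39488 and 27972 in the HP1b16 libraries, 19183 and 45047 in the HP1b86 libraries and 73877 and 60795 in the yw libraries. The 14 prepupal markers summed to 2056 and 1771 FPKM in HP1b16, 1244 and 1806 FPKM in HP1b86, and 3915 and 3909 FPKM in yw. The mutants overlapped in both sums, and the part of larval stage in the other differences was not tested.

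Of 21 rows of peptide hormone signalling, 17 had a lower mean in HP1b16, where 6639 of all 10905 rows did, and 9 were lower without overlap (all rows 18.7%). The median log2 difference was -0.17, against -0.08 over all rows, which is less than the shift of the all-row median under TPM scaling. Ilp3, which encodes an insulin-like peptide of the brain, was at 1.98 and 1.82 FPKM in HP1b16, 5.91 and 5.64 FPKM in HP1b86, and 3.57 and 3.04 FPKM in yw (log2 difference -1.22, standard error 0.17). It was the only separated row of the list, and yw lay between the mutants. Its gap shrank below 2-fold under TPM scaling and quantile normalization. The other brain insulin genes differed less: Ilp2 was at 4.45 and 5.64 FPKM in HP1b16 and at 6.70 and 4.05 FPKM in HP1b86, and Ilp5 was at 5.27 and 4.85 FPKM in HP1b16 and at 7.73 and 5.45 FPKM in HP1b86. Of these 2, Ilp2 overlapped between the mutants and Ilp5 did not. In the downstream insulin pathway 7 of 14 rows had a higher mean in HP1b16, with a median log2 difference of 0.07. Without overlap 6 of the 14 were higher (all rows 15.8%) and 2 lower (all rows 18.7%).

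Among 12 antimicrobial peptide rows, 9 had a lower mean in HP1b16 and the median log2 difference was -0.71. Without overlap 3 were lower (all rows 18.7%) and 2 higher (all rows 15.8%), counts close to those shares. Between the HP1b86 replicates 7 of the 12 differed by more than 2-fold. CecC, which encodes a cecropin, was at 1.73 and 2.24 FPKM in HP1b16, 42.5 and 7.87 FPKM in HP1b86, and 1.34 and 1.71 FPKM in yw (log2 difference -2.72, standard error 0.88). Def, the defensin gene, was at 0.606 and 0.489 FPKM in HP1b16, 2.24 and 1.86 FPKM in HP1b86, and 0.282 and 0.270 FPKM in yw (log2 difference -0.98, standard error 0.24). In both, the HP1b86 libraries were the highest of the 6. Drsl5, a relative of drosomycin, went the other way at 81.8 and 3.30 FPKM in HP1b16, 0.405 and 0.547 FPKM in HP1b86, and 626 and 26 FPKM in yw (log2 difference 3.68, standard error 1.61). It was separated, yet the HP1b16 replicates themselves differed by 4.27 on the log2 scale. IM3, an immune-induced peptide gene now named BomS3, was at 0.852 and 0.358 FPKM in HP1b16, 2.95 and 5.24 FPKM in HP1b86, and 1.95 and 1.49 FPKM in yw (log2 difference -1.64, standard error 0.36). TotA, a Turandot gene that responds to stress, was at 766 and 788 FPKM in HP1b16, 1914 and 1849 FPKM in HP1b86, and 582 and 510 FPKM in yw (log2 difference -1.28, standard error 0.22). The gaps of TotA and IM3 between the nearest libraries shrank below 2-fold under TPM scaling. Picked after its values were seen, He, the hemocyte marker hemese, was at 46.6 and 44.6 FPKM in HP1b16, 90.1 and 103 FPKM in HP1b86, and 52.4 and 58.0 FPKM in yw (log2 difference -1.06, standard error 0.15). In He the HP1b86 libraries stood above the other 4. Over 12 hemocyte rows the median log2 difference was -0.25, with 8 of 12 lower in HP1b16. Over all rows 6639 of 10905 were lower, a share close to that of the hemocyte rows. Without overlap, however, 5 of the 12 were lower (all rows 18.7%) and 0 higher (all rows 15.8%). At an unadjusted p under 0.05, 2 of the 12 were lower (all rows 2.49%). Heat shock genes had 10 of 13 rows lower and a median of -0.33. Without overlap 5 of the 13 were lower and 1 higher. Their median log2 difference from yw was -0.74 in HP1b16 and -0.44 in HP1b86.

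Small structured RNAs made up 3 of the 28 rows higher in HP1b16 and 8 of the 44 lower. Several were listed at 0 in both libraries of one mutant, so no fold can be given. These passed the minimum only through the other mutant. snoRNA:Psi18S-1377e, a guide RNA for ribosomal RNA modification, was at 12.2 and 15.2 FPKM in HP1b16 and at 3.10 and 5.83 FPKM in yw, and was listed at 0 in both HP1b86 libraries. snoRNA:Psi28S-1175c was at 16.4 and 5.29 FPKM in HP1b16 and was also listed at 0 in both HP1b86 libraries. In the other direction, the spliceosomal snRNA:U4:38AB was listed at 0 in both HP1b16 libraries and stood at 20.0 and 4.09 FPKM in HP1b86. snRNA:U4:25F was listed at 0 in both HP1b16 libraries and at 7.59 and 3.04 FPKM in HP1b86. The U1 and U4 genes exist in near-identical copies that may share reads. Over 100 rows with small nuclear, nucleolar or transfer RNAs, 44 had a higher and 56 a lower mean in HP1b16. Of the 100, 3 were separated and higher in HP1b16 (all rows 0.257%) and 7 separated and lower (all rows 0.403%). The antisense RNA CR11538 was listed at 0 in both HP1b16 libraries, at 8.81 and 17.1 FPKM in HP1b86 and at 7.33 and 99.7 FPKM in yw. The strand of the counting is not given in the sources used here, so antisense RNAs cannot be told apart from their partners.

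Separated rows were few among genes of growth and energy metabolism, as they were over all rows (0.257% higher and 0.403% lower in HP1b16). RpS14b was the only separated row among 87 of the cytosolic ribosome, at 231 and 199 FPKM in HP1b16, 644 and 532 FPKM in HP1b86, and 231 and 219 FPKM in yw (log2 difference -1.45, standard error 0.21). Its gap shrank below 2-fold under TPM scaling, and reads may be shared with the near-identical copy RpS14a. Over the ribosomal rows the median log2 difference was -0.23, with 76 of 87 rows lower in HP1b16, but of 0.13 under TPM scaling and 0.04 under quantile normalization, so no direction is given. Of 28 Krebs cycle rows, 15 had a higher mean in HP1b16, with a median log2 difference of 0.02. In this list 0 rows were without overlap, where 15.8% of all rows were higher and 18.7% lower. Glycolytic enzymes had a median of 0.27 over 15 rows, 14 of them higher in HP1b16, again with 0 without overlap. Gapdh1, which encodes glyceraldehyde-3-phosphate dehydrogenase, was at 1178 and 1344 FPKM in HP1b16, 1530 and 752 FPKM in HP1b86, and 336 and 451 FPKM in yw. Both HP1b16 libraries lay between the HP1b86 libraries. Between the HP1b86 replicates the median log2 difference of this list was 1.25 (replicate 1 minus replicate 2), all 15 rows being higher in replicate 1.

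Testis genes had the widest median difference between the HP1b86 replicates, at -2.65 on the log2 scale (replicate 1 minus replicate 2). Of 33 rows, 32 had a lower mean in HP1b16, with a median log2 difference of -0.51, but 0 were without overlap. loopin-1, a spermatid gene, was at 40.4 and 39.3 FPKM in HP1b16, 20.2 and 136 FPKM in HP1b86, and 77.0 and 53.1 FPKM in yw. The HP1b16 libraries lay between the HP1b86 libraries there. Outside the testis list, the widest single differences between the HP1b86 replicates were those of pre-rRNA:CR45847 and CG10073. pre-rRNA:CR45847 was listed at 0 in both HP1b16 libraries and in HP1b86 replicate 1, and stood at 69.8 FPKM in HP1b86 replicate 2. CG10073 was at 5.12 and 18.8 FPKM in HP1b16, 47.9 and 0.228 FPKM in HP1b86, and 0.115 and 0.239 FPKM in yw. In CG10073 the HP1b16 libraries lay between the HP1b86 replicates. Without HP1b86 replicate 1 the median of the testis list was -1.79 with 33 of 33 rows lower, and without replicate 2 it was 0.68 with 33 of 33 higher.

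**Figure D5:**
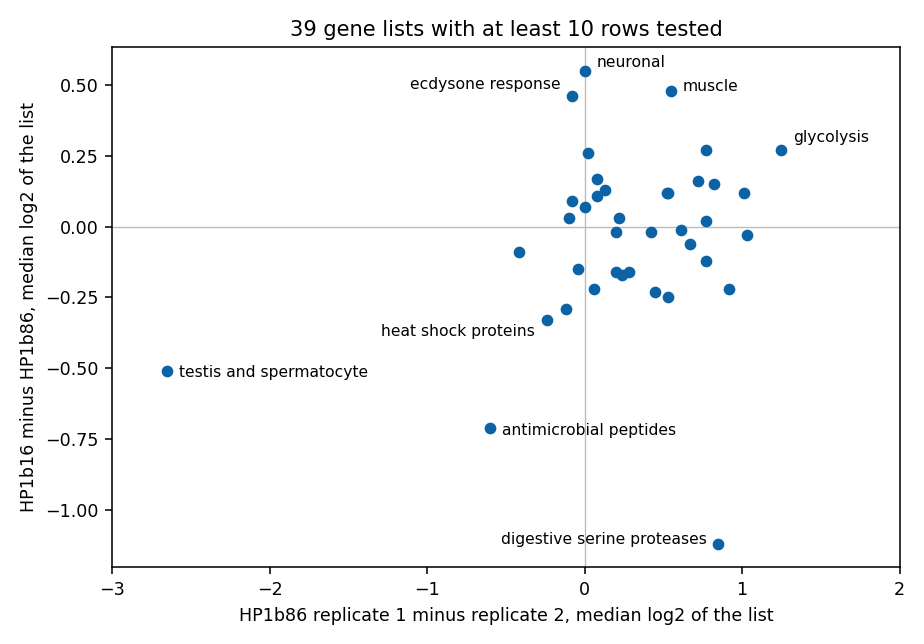
Median log2 difference between the mutants (HP1b16 minus HP1b86, vertical axis) beside the median log2 difference between the HP1b86 replicates (replicate 1 minus replicate 2, horizontal axis) for the 39 gene lists with at least 10 rows tested, 1 point per list, on the log2(FPKM + 1) scale. Neuronal genes (0.55 beside 0.00) and ecdysone response genes (0.46 beside -0.08) lie near the vertical zero line, while testis genes (-0.51 beside -2.65) lie far from it.

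The rows on the fourth chromosome leaned towards HP1b16. This small chromosome is rich in repeats and in HP1a, while most of its genes are expressed. Of 83 rows placed on it, 65 (78.3%) had a higher mean in HP1b16, and the median log2 difference was 0.24. On 2L, 2R, 3L and 3R, by contrast, 35.8% to 38.2% of rows were higher, with medians from -0.11 to -0.09. Without overlap, 45 of the 83 rows were higher in HP1b16 (all rows 15.8%) and 7 lower (all rows 18.7%), and 11 were higher at an unadjusted p under 0.05 (all rows 2.15%). The median stayed above that of all rows under TPM scaling (0.55 against 0.24) and quantile normalization (0.32 against 0.03), and was between 0.22 and 0.31 with any single library left out. Besides bt, the widest gaps were those of unc-13, which encodes a protein that primes synaptic vesicles, and RhoGAP102A. unc-13 was at 12.6 and 10.6 FPKM in HP1b16, 6.20 and 6.85 FPKM in HP1b86, and 7.70 and 11.3 FPKM in yw (log2 difference 0.74, standard error 0.16). RhoGAP102A was at 5.87 and 5.79 FPKM in HP1b16, 3.35 and 3.64 FPKM in HP1b86, and 2.55 and 4.5 FPKM in yw (log2 difference 0.60, standard error 0.15). Both genes were lower in each HP1b86 library than in either HP1b16 library. pan, which encodes the transcription factor of Wingless signalling, was at 13.6 and 11.8 FPKM in HP1b16 and at 8.33 and 7.75 FPKM in HP1b86 (log2 difference 0.60, standard error 0.15). A few rows went the other way: CG11077 was at 17.8 and 18 FPKM in HP1b16, 26.9 and 25.4 FPKM in HP1b86, and 14 and 12.5 FPKM in yw (log2 difference -0.52, standard error 0.13). Median log2 differences from yw were 0.01 in HP1b16 and -0.14 in HP1b86. Of the 83 rows, unc-13 is also in the neuronal list and bt in the muscle list. The neuronal list holds only 16 rows, so overlap with other genes of neurons was not tested.

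The X chromosome, where HP1b lies, took a place between the fourth chromosome and the other arms. Of its 1719 rows, 47.8% had a higher mean in HP1b16, with a median log2 difference of -0.01. Without overlap, 403 rows (23.4%) were higher in HP1b16 and 239 (13.9%) lower, against 15.8% and 18.7% of all rows.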

How the data were processed

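RNA from whole larvae was sequenced by the study. Per the submitters' processing notes, bcl2fastq 2.18.0.12, Trim Galore 0.4.1, TopHat2 2.1.1 and Cufflinks 2.2.1 were used with the dm3 genome. The gene annotation is not given in the sources used here. The authors deposited 1 table of FPKM per gene and library, which is normalized for length and total, so no count test was used. limma 3.58.1 in R 4.3.3 was fitted to log2(FPKM + 1) of the 4 mutant libraries with a mean-variance trend, and p-values were adjusted by the Benjamini-Hochberg method over all 10905 rows. A fold change on this scale understates that of low genes. The code was tested on simulated data. Gene names, biotypes, arms and neighbours came from RefSeq (Release 6 plus ISO1 MT), in which 99.1% of the rows were placed, and no coordinates were used because the builds differ. Tables and figures were made with pandas 2.3.3 and matplotlib 3.10.9.

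Named genes were HP1b and its neighbours, the rows with the widest gaps, separated members of lists, the largest HP1b86 replicate differences and the rows left out. The other genes given as examples of a list were chosen after their values were seen. The members and the 51 lists were chosen with earlier results of these data known. Lists were described by counts and medians. Alternatives were other scalings (TPM, median ratio, quantile), filters, a pseudocount of 0.1, all 6 libraries in the fit, no trend, a replicate block and leaving out each library.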

Additional observations from a re-analysis of the deposited data

How the results depend on the processing

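The number of rows past the adjusted threshold in limma was 0 in the reported comparison and in every alternative that kept the 4 mutant libraries, and 0 to 2314 with 1 library left out. The smallest adjusted p was 0.0893 with all 6 libraries in the fit. Rows higher at an unadjusted p under 0.05 (234 as reported) numbered 560 under TPM scaling, 412 with all 6 libraries, 365 with no minimum and 45 to 1750 with 1 library left out. Rows lower (272 as reported) numbered 72 under TPM scaling, 453 with all 6 libraries, 151 under quantile normalization and 46 to 2573 with 1 library left out. Separated rows higher in HP1b16 (28) numbered 61 under TPM scaling, 17 at a mean of at least 5 FPKM, 43 with a pseudocount of 0.1 and 55 to 181 with 1 library left out. Separated rows lower (44) numbered 27 under TPM scaling and 66 to 1680 with 1 library left out. HP1b ranged from 1.72 to 1.94 with 1 library left out, was past the threshold at 1.88 without HP1b86 replicate 1 and in no other such fit, and was 4.05 with a pseudocount of 0.1. The replicate numbers did not pair the libraries (correlation of the replicate differences of HP1b16 and HP1b86 -0.203). With the replicate block 74 rows were higher and 96 lower at an unadjusted p under 0.05, and with crossed pairing, chosen after seeing the data, 261 and 305. With 1 library left out the difference changed sign in 12 named genes, those of the widest HP1b86 replicate differences and APC4: APC4 -0.02 to 0.12, CG10073 -2.15 to 3.17, CG11349 -0.09 to 4.23, CG7203 -1.14 to 3.13, CG9021 -0.80 to 3.86, Cpr78Cc -1.87 to 2.2, TwdlO -0.16 to 4.16, Yp3 -0.07 to 4.66, lcs -1.79 to 2.34, snRNA:U5:63BC -0.92 to 4.03, snoRNA:Psi28S-1175a -2.90 to 0.75 and snoRNA:Psi28S-3436a -1.96 to 2.50. The medians of 32 of the 51 lists moved under TPM scaling, 17 without HP1b86 replicate 1 and 22 without replicate 2. The cause was not tested. The reads behind single values are not known here, so no limit of detection is given for values near 0 FPKM.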

Other observations

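Cuticle protein genes of the CPR family, which bind chitin, had 39 of 59 rows higher in HP1b16 and a median log2 difference of 0.16, with 4 rows higher and 1 lower at an unadjusted p under 0.05. Over all rows these shares were 2.15% and 2.49%. In 31 of the 59 rows the HP1b86 replicates differed by more than 2-fold. The median log2 difference from yw was 1.78 in HP1b16 and 1.52 in HP1b86. Cytochrome P450 genes, which oxidize hormones and foreign compounds, had 41 of 66 rows higher and a median of 0.12. Glutathione S-transferase genes were balanced, with 16 of 33 rows higher and a median of -0.01. Proteasome genes had 33 of 46 rows lower in HP1b16 and a median of -0.09, close to that of all rows (-0.08).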
